A study of Saccharomyces cerevisiae with 8 samples.

Results

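Copy number in Mcm6-SuOn cells at 40 min after release was compared with copy number in the same genotype at 30 min, along the whole yeast genome. The members are the genomic windows of 1000 bp, placed every 500 bp, in which the deposited relative copy number was above 0 at both times. There were 22989 of them among 24133 windows in all. For each window the relative copy number at 40 min was divided by that at 30 min, and the quotient was divided by its median over the genome. The 0 min count is the denominator of both deposited values and cancels, so that the quotient is a ratio of read counts in 2 libraries. A value above 1 means that a window held a larger part of the reads at 40 than at 30 min. The total DNA per cell was not measured, and a value below 1 does not mean that DNA was lost.

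Genomic DNA came from Saccharomyces cerevisiae of the W303 strain background. The Mcm6-SuOn cells carried Mcm6-SuOn::KAN/+, and the control cells carried Mcm6-ctrl::KAN/+ in its place. Both were homozygous for the temperature-sensitive kinase allele (cdc7-4/cdc7-4), and both had a degradable Mcm6 on 1 homologue (Mcm6-aid::HIS3/+) together with the TIR gene that its degradation needs (ADH1-TIR::URA/+). All cultures were grown at 24 °C, held in G2/M with nocodazole, given 1 mM IAA to degrade Mcm6-aid, shifted to 37 °C to inactivate cdc7-4 at the G1/S border and cooled to 24 °C. Samples were taken at 0, 15, 30 and 40 min, which gives 8 libraries with 1 for each genotype and time. Each genotype was 1 strain, and whether its times came from a single culture is not stated. No difference has a replicate check, and no test was made. The 95% exact binomial intervals cover counting error alone, since PCR copies of a molecule cannot be recognised here.

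Replication starts at origins, where the MCM helicase, a ring of 6 subunits that includes Mcm6, is loaded before S phase and activated with the help of the Cdc7 kinase. Origins fire at characteristic times, so that early parts of the genome reach their second copy before late parts do. In a population that has just begun S phase, read depth peaks at early origins. As forks move away from the origins and late regions are copied, the peaks broaden and the profile flattens again. A ratio of a later to an earlier time is then below the genome median where copying was already far advanced, and above it where copying was still going on.

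Depth and the position of the libraries relative to each other bear on every value. With each read counted once, the windows with a value held 16836282 (30 min) and 23440884 (40 min) reads in Mcm6-SuOn, and 17811500 and 17039468 in the control. Between-library spread was measured as the SD over windows of 10 kb mean ratios in windows with values in all 8 libraries. For Mcm6-SuOn it was 0.0422 between 0 and 15 min and 0.0378 between 15 and 30 min, but 0.0844 between 30 and 40 min. The Mcm6-SuOn library at 40 min was nearer to the control at 40 min, with an SD of 0.0669, than to the Mcm6-SuOn libraries at 0, 15 or 30 min, with SDs of 0.0729, 0.0872 and 0.0844. Its SD from the control at 0 min was 0.0782, also below those from Mcm6-SuOn at 15 and 30 min. Without the outer 75 kb of each chromosome that SD was 0.0639, against 0.0703, 0.0810 and 0.0753 from Mcm6-SuOn at 0, 15 and 30 min. Coverage near chromosome ends was lowest in the control's 0 min library, which enters no 40 over 30 min ratio.

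The ratio of the 40 and 30 min libraries of Mcm6-SuOn cells varied along the genome by more than counting error. With 1 library at each time, the time step and other differences between the libraries cannot be told apart. Single windows had an SD of 0.0981 around the genome median of 1, against 0.0348 from counting alone, which is a variance of 7.97 times the counting variance. From the lowest to the highest window the ratio ran from 0.594 to 1.49, and the middle 50% of windows lay between 0.937 and 1.07. In the control the SD was 0.0958, against 0.0370 from counting, and the middle 50% lay between 0.939 and 1.07. Both genotypes thus had a like spread in single windows.

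The scale of the pattern differed more than its size. In means over 10 kb the SD was 0.0859 in Mcm6-SuOn and 0.0805 in the control, in means over 50 kb it was 0.0733 and 0.0560, and in means over 100 kb 0.0630 and 0.0470. Windows 20 kb apart correlated at r = 0.472 in Mcm6-SuOn (21768 pairs of windows) and at 0.0933 in the control (21623 pairs). At 30 kb the values were 0.331 and 0.00397, and at 50 kb 0.226 and 0.223. These correlations describe windows that share 2 libraries and have no replicate. The Mcm6-SuOn pattern was therefore broader, with 12.9% of its variance lying between chromosomes against 5.13% in the control.

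Gained and lost windows were those whose 10 kb mean ratio was at least 1.1 or at most 0.909. The median counting error of such a mean was 0.0107, so that the threshold lay 9.39 errors from the genome median. Of 23132 windows with a 10 kb mean, 2828 were gained (12.2%) and 3085 were lost (13.3%) in Mcm6-SuOn. In the control the percentages were 12.2% and 10.8% of 22977 windows. Runs of at least 5 kb formed 67 gained zones on 14 chromosomes, with a median length of 17.0 kb, and 66 lost zones on 15 chromosomes, with a median length of 18.75 kb. Chromosomes I and IX held no gained window, while 49.4% and 50.1% of their windows were lost. Chromosome VI lay at the other extreme, with 39.7% of its windows gained and 1.72% lost.

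Since the zones were chosen on the 30 and 40 min libraries, the place of these libraries in the courses below is a description. Of the 67 gained zones 8 came within 50 kb of an end by their nearer edge (11.9%). Of single windows, placed by their midpoint, 8.59% of the gained lay there, against 11.4% of all windows. The zone with the highest mean ratio covered chromosome IV from 576501 to 609000 in sacCer2, the build of the deposited files. Its coverage, given as the reads per window over the library's median window, was 0.975, 0.941, 0.935 and 1.11 in Mcm6-SuOn at 0, 15, 30 and 40 min. In the control it was 1.075, 0.951, 0.923 and 1.03 at the same times. The stretch was thus at its lowest at 30 min in both genotypes and at its highest at 40 min in Mcm6-SuOn. Summed reads gave a ratio of 1.19 (1.17 to 1.203 for counting error), with 64 of 64 windows above 1, and 1.13 (1.11 to 1.14) in the control.

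On chromosome X, the zone from 603001 to 662000 was the second, at a mean ratio of 1.17. Its Mcm6-SuOn coverage was 1.107, 1.076, 1.051 and 1.23 at the 4 times. All 117 windows of the zone were above 1, and the control ratio was 1.103. A zone near the left end of chromosome XIII, from 8001 to 28000, also had a mean of 1.17. There the Mcm6-SuOn coverage was 1.247, 1.24, 1.23 and 1.43, so that the first 3 libraries of this genotype lay close together and the last stood apart. Control coverage was 1.397, 1.258, 1.153 and 1.255, so that its 0 min value was near the Mcm6-SuOn value at 40 min.

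The zone on chromosome XI from 467501 to 497000 differed from the 3 above in that the control moved further. Mcm6-SuOn coverage was 1.107, 1.06, 0.994 and 1.16 at 0, 15, 30 and 40 min, and control coverage was 1.21, 1.07, 0.936 and 1.13. Mean ratios were 1.17 in Mcm6-SuOn and 1.22 in the control. The fifth zone, on chromosome VII from 823001 to 876500, had a mean ratio of 1.17, with 1.087 in the control.

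The remaining named gained zones were all on chromosome XII. They covered 608501 to 651000, 434001 to 452000 and 254001 to 275000, at mean ratios of 1.16, 1.16 and 1.16 in Mcm6-SuOn and 1.094, 1.13 and 1.18 in the control. In each of these 3 zones Mcm6-SuOn coverage was already higher at 30 than at 15 min, while in the other 5 named gained zones it was lower. The zone from 434001 had coverage of 0.810, 0.780, 0.909 and 1.053 at 0, 15, 30 and 40 min.

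Lost zones were concentrated near chromosome ends. Of 66 lost zones, 25 came within 50 kb of an end by their nearer edge (37.9%). Of the lost windows 37.3% lay there, of the gained windows 8.59%, and of all windows 11.4%. The zone with the lowest mean ratio was the right end of chromosome XIII, from 872501 to 917500. Its Mcm6-SuOn coverage was 0.839, 0.926, 0.968 and 0.7398 at 0, 15, 30 and 40 min, and in the control it was 0.617, 0.898, 1.045 and 0.870. Both genotypes were higher at 30 min than at 15 min and lower at 40 min. The Mcm6-SuOn value at 40 min was below all 3 earlier libraries, whereas the control value at 40 min stayed above its 0 min value. Summed reads gave a ratio of 0.746 (0.737 to 0.754) in Mcm6-SuOn and 0.838 (0.827 to 0.848) in the control, and none of 89 windows exceeded 1 in Mcm6-SuOn.

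The right end of chromosome XVI, from 924001 to 944000, followed at a mean ratio of 0.773. Coverage in Mcm6-SuOn was 0.897, 1.01, 1.09 and 0.841 at the 4 times, against 0.705, 0.986, 1.14 and 0.968 in the control. A zone on chromosome I from 152501 to 200000 had a mean ratio of 0.789 and Mcm6-SuOn coverage of 0.866, 0.936, 0.965 and 0.771. Each of these zones was highest at 30 min and lowest at 40 min among the Mcm6-SuOn libraries.

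The left end of chromosome VIII (4001 to 74000) had a mean ratio of 0.802 over 70 kb, with 0.938 in the control. The right ends of chromosomes II (770001 to 809500) and VII (1049001 to 1085000) stood at 0.804 and 0.816, with control ratios of 0.928 and 0.861. The right end of chromosome XII (1055001 to 1066000) stood at 0.824, with 0.889 in the control. The only one of the 8 lowest zones more than 50 kb from an end lay on chromosome IV from 374501 to 395500. Its ratio was 0.818 in Mcm6-SuOn and 0.835 in the control, so that the genotypes differed little there. Mcm6-SuOn coverage in that zone was 0.815, 0.845, 0.815 and 0.666 at the 4 times.

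A long stretch on the right arm of chromosome III, with raised coverage already at 0 min in Mcm6-SuOn, also came out as a lost zone, from 210501 to 280000, at rank 10 from the lowest and named here after its values were seen. Its coverage was 1.35, 1.39, 1.34 and 1.11 at 0, 15, 30 and 40 min in Mcm6-SuOn, against 0.724, 0.982, 0.955 and 0.848 in the control. The ratio was 0.8304 (0.824 to 0.837) in Mcm6-SuOn, and the mean over windows in the control was 0.897.

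Over all zones, coverage is given as a description, since the rule used the 30 and 40 min libraries. Median coverage in the lost zones was 0.943, 0.981, 0.997 and 0.859 at 0, 15, 30 and 40 min. In the gained zones it was 1.035, 0.9904, 0.988 and 1.109. Mcm6-SuOn coverage at 40 min was below that at 0 min in 60 of 66 lost zones and below that at 15 min in 65. Of the 67 gained zones, all 67 had more coverage at 40 min than at 0 min and than at 15 min. The 0 min libraries of the genotypes also differed in these places. The Mcm6-SuOn library had the higher 0 min coverage in 66 of 66 lost zones and the lower in 63 of 67 gained zones. Over 22872 windows the 40 over 30 min ratio of Mcm6-SuOn correlated at r = -0.615 with the log2 ratio of Mcm6-SuOn over control coverage at 0 min, although no library is shared. The same correlation for the control's 40 over 30 min ratio was -0.291. What part such library differences have in the zones was not tested.

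**Figure D1:**
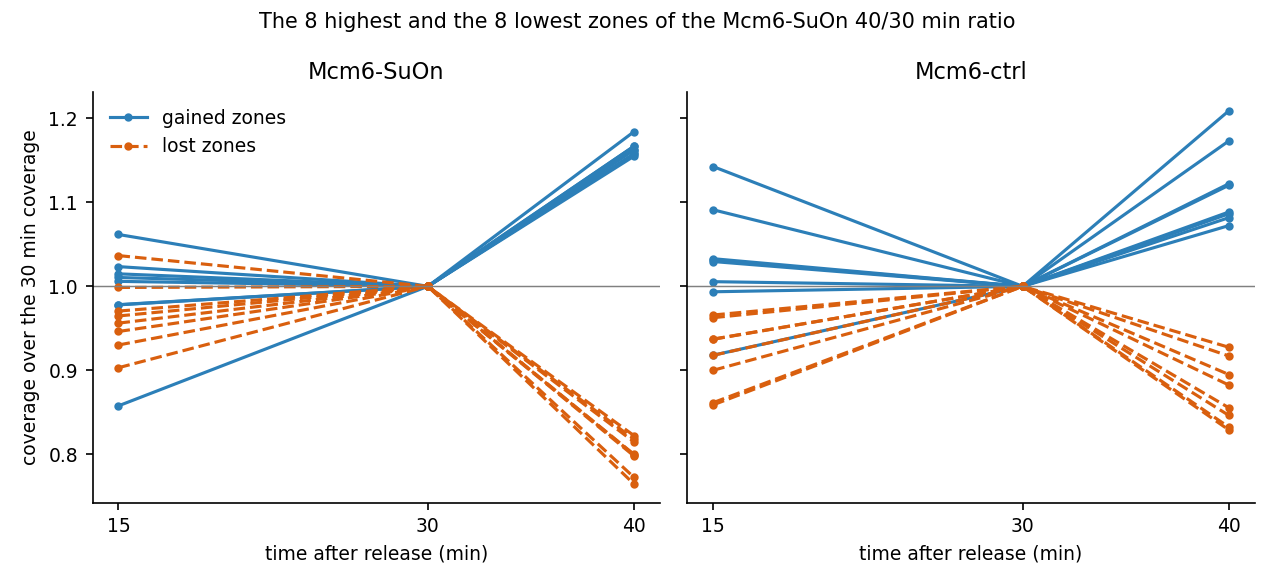
Coverage of the 8 highest gained zones (blue, solid) and the 8 lowest lost zones (orange, dashed) at 15, 30 and 40 min, divided by the coverage at 30 min, in Mcm6-SuOn (left) and the control (right), with 1 line for each zone. Zones were chosen on the Mcm6-SuOn 40 over 30 min ratio, so the split between 30 and 40 min on the left follows from the choice, while the control panel, where the same zones also part, does not.

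The control moved the same way in most zones, although its libraries did not enter the choice. Its mean ratio was above 1 in 65 of 67 gained zones, with a median of 1.1009, and below 1 in 60 of 66 lost zones, with a median of 0.933. It was past the 1.1-fold threshold in 34 gained and 25 lost zones. Among windows with a 10 kb mean in both genotypes, 1488 were gained in both, which is 52.6% of those gained in Mcm6-SuOn and 52.9% of those gained in the control. There were 1309 lost in both, which is 43.9% and 52.7%. Genome-wide, the control had 12.2% of its windows gained and 10.8% lost. For Mcm6-SuOn these shares were 12.2% and 13.3%. Ratios of 10 kb means correlated at r = 0.653 between the genotypes over 22977 windows, a description of 4 libraries. For 100 kb means r was 0.666. In single windows r was 0.491 over 22872 windows, and after division by the 100 kb mean it was 0.391 over 22780 windows. Single windows carry more counting error than means, so these values cannot be set directly against that of the 100 kb means.

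Windows were also ordered by copy number at 15 min, which comes from a library outside the ratio, and the median ratio was lower at each step up that order. The ranking used the 10 kb mean relative copy number of Mcm6-SuOn at 15 min, and windows were split into deciles. The decile with the lowest copy number at 15 min had a median 40 over 30 min ratio of 1.08, and 82.5% of its windows were above 1. The following deciles stood at 1.04, 1.03, 1.02, 1.001, 0.995, 0.988, 0.974 and 0.952, and the highest decile at 0.908, with 15.1% of windows above 1. Of the lowest decile, 38.7% of windows were gained and 0.952% lost. Of the highest decile, 0.782% were gained and 47.2% lost, against 12.2% and 13.3% genome-wide. Windows that were low at 15 min thus tended to have the high 40 over 30 min ratios.

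Relative copy number over the same genotype's 0 min count shows where the deciles stood at each time. In the lowest decile the median, relative to the genome median, was 0.935, 0.941 and 1.01 at 15, 30 and 40 min. In the highest decile it was 1.085, 1.089 and 0.983. Between 15 and 30 min the order of the deciles was kept with little movement. At 40 min all 10 medians of this ranking lay between 0.983 and 1.01. These values share the 0 min library with the ranking. Ranked by the control at 15 min, the Mcm6-SuOn medians were 0.955 in the lowest and 1.067 in the highest decile at 30 min. At 40 min they were 1.051 and 0.920. Ranked by the control at 30 min, they were 0.934 and 1.081 at 30 min, and 1.023 and 0.940 at 40 min. In these control rankings the order of the extremes was thus reversed at 40 min. Coverage is not divided by the 0 min library. In the lowest decile of the Mcm6-SuOn ranking it was 1.0498, 0.984, 0.987 and 1.06 at 0, 15, 30 and 40 min. In the highest decile it was 0.961, 1.047, 1.051 and 0.954. Coverage at 40 min was close to that at 0 min at both extremes, but the 0 and 15 min libraries set this ranking. Ranked by the control at 15 min, Mcm6-SuOn coverage at 0 and 40 min was 1.055 and 1.107 in the lowest decile. In the highest decile it was 0.966 and 0.898. Coverage at 40 min then lay above that at 0 min in the lowest decile and below it in the highest.

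For the control, the deciles of the Mcm6-SuOn ranking had 40 over 30 min medians of 1.091 in the lowest and 0.941 in the highest. Control relative copy number in these deciles was 0.864 and 1.253 at 30 min and 0.940 and 1.18 at 40 min. These values rest on the control's 0 min library, whose coverage was 1.095 in the lowest and 0.848 in the highest decile. In coverage without that denominator the control had 1.03 and 1.01 at 40 min, closer together than the 1.06 and 0.954 of Mcm6-SuOn. Place on the chromosome differed between the deciles too. Of the windows in the highest decile 32.6% lay within 30 kb of an end, and of those in the lowest 0.693%. Without the outer 75 kb of each chromosome, a setting chosen after the data were seen, the highest decile stood below the lowest by a difference of -0.130, against -0.174 with all windows. Divided by the 100 kb mean, also added later, the difference was -0.0536.

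**Figure D2:**
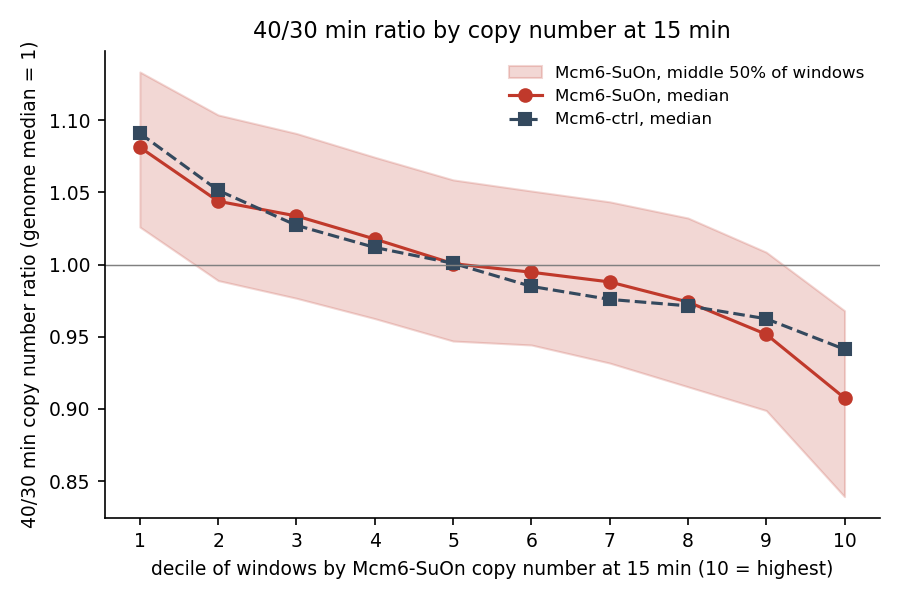
Median 40 over 30 min copy number ratio (y axis, genome median at 1) in deciles of windows ranked by Mcm6-SuOn copy number at 15 min (x axis, 10 the highest). Circles with a band for the middle 50% of windows are Mcm6-SuOn and squares the control. The Mcm6-SuOn medians run from 1.08 in the lowest to 0.908 in the highest decile.

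Around peaks of the control profile at 30 min the ratio had a shallow trough in Mcm6-SuOn. These 135 peaks were taken from the control's smoothed copy number relative to its 0 min library, both outside the Mcm6-SuOn ratio. No map of origins was used. A peak was the highest window within 5 kb with a prominence of at least 0.1. Within 1 kb of these peaks the median Mcm6-SuOn ratio was 0.9702, and at 15 to 25 kb it was 1.01. The median difference of centre and flank was -0.0435, with the middle 50% of peaks between -0.0931 and -0.0126, and 107 of 135 peaks were below their flanks. Centres ranged from 0.738 to 1.22. At the 119 lowest points between neighbouring peaks, where forks from neighbouring origins can meet, the median ratio was 1.06, and 93 of 119 were above 1.

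With distance from these peaks, the mean Mcm6-SuOn ratio went from 0.964 at the centre (SD 0.0875 over 135 peaks) to 0.981 at 10 kb and 1.01 at 20 kb, reached 1.04 at 30 kb (SD 0.0722) and was 1.005 at 50 kb. Gained windows lay a median of 28.0 kb from the nearest of these peaks and lost windows 16.5 kb, against 22.0 kb for all windows on chromosomes with a peak. The order was the opposite for the peaks of Mcm6-SuOn at 15 min, with 56.25 kb for gained windows, 151.5 kb for lost windows and 71.0 kb for all. None of those peaks lay within 50 kb of a chromosome end, where 37.3% of the lost windows lay. What part this has in the order was not tested. The SD over peaks was of about the size of the difference between the means at 0 and 30 kb, so that the profile describes the average and not each peak.

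To set both genotypes at the same places, peaks of a library in neither ratio were used. At the 115 peaks of the control at 15 min, the median centre was 0.969 in Mcm6-SuOn and 0.934 in the control. The difference of centre and flank was -0.0322 in Mcm6-SuOn, with 80 of 115 peaks below their flanks, and -0.111 in the control, with 105 below. The mean ratio was highest at 30 kb in Mcm6-SuOn, at 1.03, and at 25 kb in the control, at 1.053.

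The 45 peaks of the Mcm6-SuOn profile at 15 min showed less of a trough. Their median centre was 0.9995, the difference of centre and flank was -0.00979, and 26 of 45 were below their flanks, with the middle 50% between -0.0461 and 0.0237. In the control, the same 45 places had a difference of -0.0946, with 40 below. The highest mean ratio in Mcm6-SuOn was 1.06, at 35 kb from the peak, and the control's was 1.07, at 25 kb. At the 31 low points between these peaks the median was 1.08 in both genotypes, and 25 of 31 were above 1 in Mcm6-SuOn. No peak of the Mcm6-SuOn profile at 15 min lay within 50 kb of a chromosome end, while 12 of the 135 control peaks at 30 min did, with a median Mcm6-SuOn centre of 0.891.

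**Figure D3:**
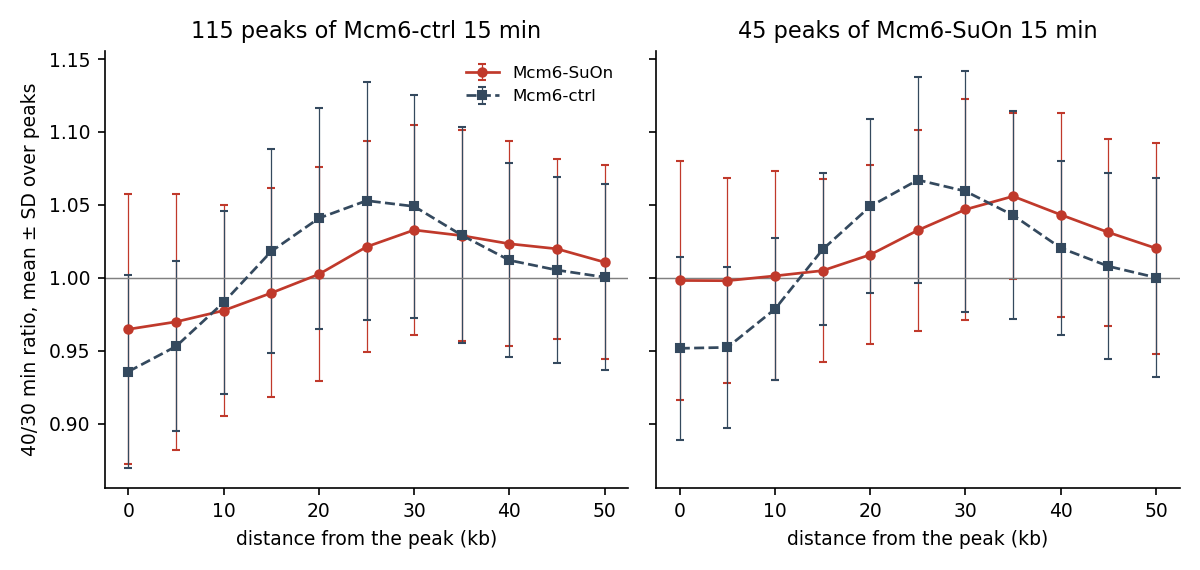
Mean 40 over 30 min copy number ratio (y axis, bars 1 SD over peaks) against distance from the peak in kb, at 115 peaks of the control at 15 min (left) and 45 peaks of Mcm6-SuOn at 15 min (right). Circles are Mcm6-SuOn and squares the control. The control has the deeper centre in both panels, at 0.936 and 0.952, against 0.965 and 0.998 in Mcm6-SuOn.

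Chromosome ends, which are mostly late to replicate in yeast, held a smaller part of the reads at 40 than at 30 min in Mcm6-SuOn. Their coverage in these libraries was already raised at 15 and 30 min, at 1.11 and 1.147 within 30 kb of an end. What raised it was not tested. Within 30 kb of an end the median ratio was 0.902 over 1377 windows, against 1.004 in the rest, and 75.9% of the windows were below 1. In the control the medians were 0.982 and 1.0009, and 55.6% of the windows near ends were below 1. Of the 32 ends, 26 had a median below 1 in Mcm6-SuOn and 22 in the control, and at 28 ends Mcm6-SuOn was the lower of the genotypes. Single ends ranged from 0.626 at the right end of chromosome I, with 4 windows, to 1.17 at the left end of chromosome XIII. The control's ends ranged from 0.788 to 1.14.

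Going inward, the Mcm6-SuOn median was 0.946 in the outer 10 kb, 0.871 at 10 to 20 kb, 0.904 at 20 to 30 kb and 0.941 at 30 to 50 kb. It went on to 0.957, 0.969 and 0.985 at 50 to 75, 75 to 100 and 100 to 150 kb, was 1.002 at 150 to 200 kb and 1.02 further inside. In these bins, which pool the chromosomes, a gradient over more than 100 kb was therefore present in Mcm6-SuOn. Short chromosomes, such as I at 230 kb and III at 317 kb, have no windows in the innermost bin. Differences between chromosomes thus enter the gradient, which was not measured within chromosomes. In the control the medians at 10 to 20 kb, 20 to 30 kb and 30 to 50 kb were 0.970, 0.976 and 0.996, and the other bins lay between 0.996 and 1.02.

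Coverage within 30 kb of ends was 1.03, 1.11, 1.147 and 1.02 at 0, 15, 30 and 40 min in Mcm6-SuOn. The control had 0.873, 1.085, 1.11 and 1.055. In both genotypes the ends were highest at 30 min. At 40 min Mcm6-SuOn was back near its 0 min coverage, while the control was well above its own, which was the lowest of the 8. Set against the Mcm6-SuOn 0 min library in place of 30 min, a comparison added after the data were seen, the ends differed from the rest by -0.00126, and against 15 min by -0.0758. The low ratio at ends thus went with a coverage that was raised at 15 and 30 min and near its 0 min level at 40 min.

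**Figure D4:**
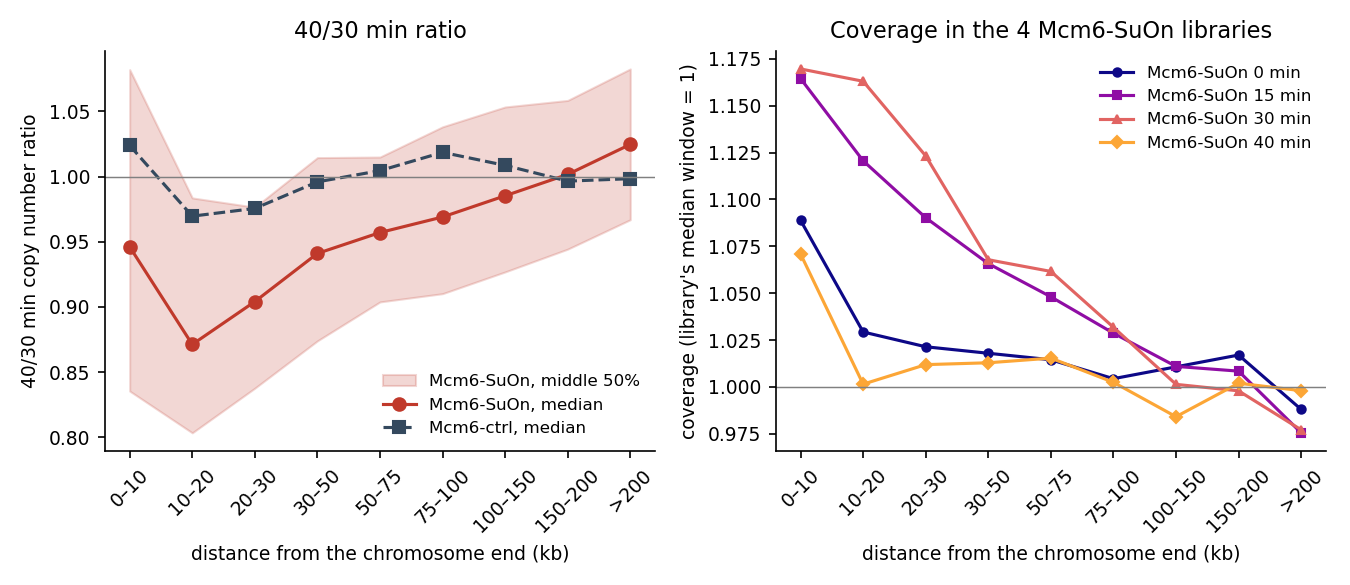
Left, median 40 over 30 min copy number ratio by distance from the chromosome end in kb, with a band for the middle 50% of Mcm6-SuOn windows (circles Mcm6-SuOn, squares control). Right, median coverage in the 4 Mcm6-SuOn libraries over the library's median window. At 10 to 20 kb the Mcm6-SuOn ratio is 0.871 and the 40 min coverage 1.001, against 1.16 at 30 min.

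Whole chromosomes differed in the change of their read share. The highest Mcm6-SuOn ratio of read share at 40 over 30 min was that of chromosome VI, at 1.06 (1.059 to 1.07 for counting error), followed by chromosome XII at 1.054 (1.051 to 1.056) and chromosome XV at 1.03 (1.02 to 1.03). The lowest were chromosome I at 0.889 (0.885 to 0.894), chromosome IX at 0.907 (0.904 to 0.9096) and chromosome III at 0.939 (0.936 to 0.943). The SD over 16 chromosomes was 0.0488 in Mcm6-SuOn and 0.0287 in the control.

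Chromosome I took 1.64%, 1.73%, 1.68% and 1.502% of the reads at 0, 15, 30 and 40 min in Mcm6-SuOn. In the control it took 1.39%, 1.76%, 1.74% and 1.704%. The Mcm6-SuOn share was thus lowest at 40 min and the control share lowest at 0 min. Chromosome VI took 2.66%, 2.698%, 2.58% and 2.74% in Mcm6-SuOn and 2.77%, 2.82%, 2.56% and 2.78% in the control, with the lowest value at 30 min in both. Chromosome XI, by contrast, had a ratio of 1.02 in Mcm6-SuOn and 1.048 in the control. Of the 16 chromosomes, 3 lay on different sides of 1 in the genotypes. For 1 of them, chromosome VIII, the control's counting interval of 0.998 to 1.004 included 1.

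**Figure D5:**
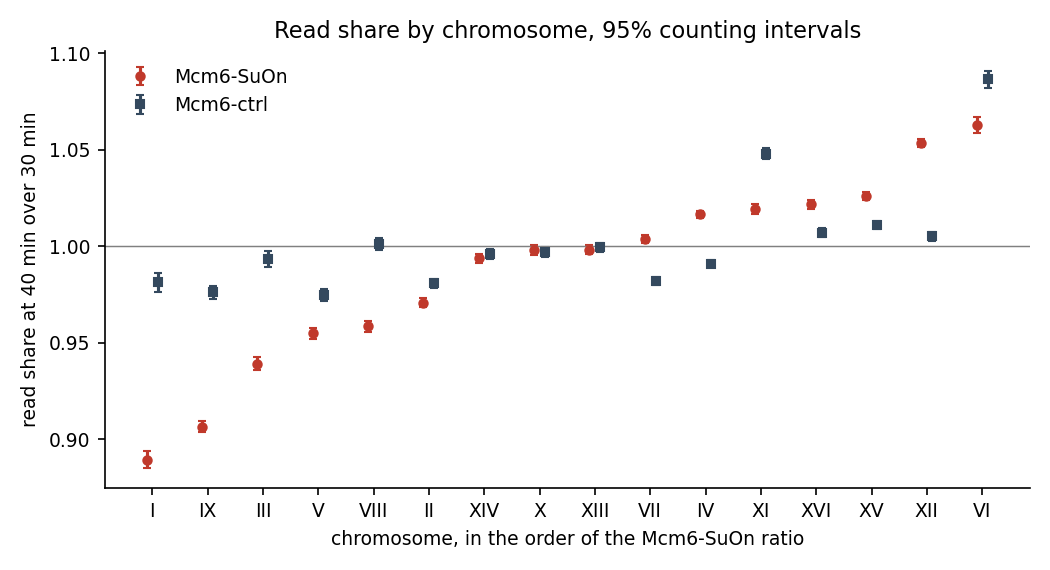
Ratio of read share at 40 over 30 min (y axis) for the 16 chromosomes in the order of the Mcm6-SuOn ratio (x axis), with 95% counting intervals (circles Mcm6-SuOn, squares control). Mcm6-SuOn runs from 0.889 on chromosome I to 1.06 on chromosome VI, a wider range than the control's.

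Part of the value of chromosome XII came from a few windows of very high count, between 459001 and 461500. Reads from the many copies of the ribosomal DNA, the tandem array on this chromosome that encodes ribosomal RNA, collect on few reference windows. Only these 4 windows exceeded 10 times the median count in the Mcm6-SuOn 0 min library. Their coverage in the window starting at 459501 was 69.6, 68.7, 71.7 and 83.9 at 0, 15, 30 and 40 min in Mcm6-SuOn, and 67.1, 74.8, 70.2 and 78.3 in the control. The summed ratio of 40 over 30 min was 1.1802 (1.17 to 1.19) in Mcm6-SuOn and 1.13 (1.12 to 1.14) in the control. Without them chromosome XII had a ratio of 1.04 (1.038 to 1.043) in Mcm6-SuOn and 0.994 (0.991 to 0.996) in the control.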

How the data were processed

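Whole-genome sequencing of 8 libraries gave the data. For 0 min the authors deposited read counts in windows of 1000 bp every 500 bp. For later times they deposited, per the file headers, a ratio of copy number (rcn), the same ratio scaled within each chromosome, and a smoothed form. The values show rcn to be the count over the 0 min count of the same genotype, listed at 0 where either count is at most about 600. The ratio is rounded to 3 decimals, so this could be checked only at 0 min counts up to 1000. There, rcn times the 0 min count was within rounding (0.303 to 0.499 reads) of a whole number in 100% of the 198 (30 min) and 220 (40 min) Mcm6-SuOn windows tested, where 81.3% and 79.7% of arbitrary values would pass. At higher counts the recovered reads are rounded to the nearest whole number. Per the submitters' processing notes the genome build is sacCer2. An aligner is not given in the sources used here.

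The ratio of 40 over 30 min was divided by its genome median, and 10 kb means took 21 windows with at least 11 values. With 1 library per group no test was made. Calculations used Python 3.11.15, numpy 2.4.6, pandas 2.3.3 and scipy 1.17.1, and were tested on simulated counts. The named zones are the 8 highest and 8 lowest by mean ratio, and the named chromosomes the 3 at either extreme. Members, lists and rules were chosen with earlier results of these data known. No annotation of sacCer2 was used here, so that zones carry no gene names.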

Additional observations from a re-analysis of the deposited data

Results flagged for a closer look

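The genotypes were compared at the 16 chromosomes, the bins of distance from an end, the 8 gained and 8 lost named zones and the 10 deciles of the Mcm6-SuOn ranking. In 9 of these values the genotypes lay on opposite sides of the genome median or of an unchanged read share. None was a named zone or a decile. Each genotype had 1 library pair, and the difference was not tested. By distance from a chromosome end, the median 40 over 30 min ratio in Mcm6-SuOn was 0.946 in the outer 10 kb, 0.957 at 50 to 75 kb, 0.969 at 75 to 100 kb and 0.985 at 100 to 150 kb, where the control had 1.02, 1.005, 1.02 and 1.009. At 150 to 200 kb Mcm6-SuOn stood at 1.002 and the control at 0.996, and further inside at 1.02 and 0.998. By chromosome, the read share ratio in Mcm6-SuOn was 1.02 on chromosome IV and 1.004 on chromosome VII, with 0.991 and 0.982 in the control. On chromosome VIII it was 0.958, with 1.001 in the control. The control's counting interval there, 0.998 to 1.004, included 1.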

How the results depend on the processing

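No paired analysis was possible because each genotype and time has 1 library. Every difference between deciles, between peak centres and flanks and between ends and the rest kept its sign under each setting run. Against 0 min, however, almost nothing was left of the difference between ends and the rest, at -0.00126. The SD over windows, 0.0981 as reported, was 0.0924 without the outer 30 kb, 0.0801 in the smoothed column, 0.0919 with each chromosome over its own median and 0.0692 over the mean of 100 kb. The gained and lost shares were 28.8% and 27.2% with a threshold 5% above the median or the inverse of it, 3.37% and 6.59% with 15%, and 2.28% and 3.81% over the mean of 100 kb. The difference between the highest and lowest decile, -0.174 as reported, was -0.240 ranked by the control at 15 min, -0.233 ranked by the control at 30 min, -0.141 without the outer 30 kb, -0.130 without the outer 75 kb, -0.113 ranked by control 30 min over Mcm6-SuOn 0 min reads and -0.0536 over the mean of 100 kb. Taken as 40 over 0 min and ranked by the control at 30 min it was -0.0830. The peak trough, -0.0435 as reported, was -0.0322 at control 15 min peaks, -0.00979 at Mcm6-SuOn 15 min peaks and -0.0347 with a prominence of 0.05. Ends less the rest, -0.102 as reported, gave -0.0841 for 50 kb, -0.0715 for 75 kb, -0.0758 against 15 min and -0.00126 against 0 min. Settings with the 100 kb mean, the outer 75 kb, the mixed ranking and another reference library were added after the data were seen. The cause of these shifts was not tested. The named zones ranged from 1.108 to 1.19 and from 0.746 to 0.888 over the settings run, with no change of side.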

Other observations

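At 7 single windows, among the 22989 with a value, the Mcm6-SuOn ratio lay more than 5 counting errors from the 10 kb mean around it. Each time it lay below that mean. No such count is given for the control, so whether this number is unusual for a pair of libraries is not known. The farthest were on chromosome VIII at 299001 to 300000, with a ratio of 0.808 against a mean of 0.987, and on chromosome IV at 1436501 to 1437500, with 0.701 against 0.8701. The control ratios in these windows were 0.883 and 1.03. The first held 1670 reads at 30 min and 1878 at 40 min, the second 1453 and 1416.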
